A study of Mus musculus with 27 samples.

Results

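RNA-Seq counts from scrapings of the colonic epithelium were compared between mice given 10 μg/kg and mice given 3 μg/kg the dioxin TCDD. The comparison covered 6 of the 27 libraries in the series, chosen by their labelled dose: mice 49, 51 and 52 at 3 μg/kg and mice 57, 58 and 59 at 10 μg/kg. All were male C57BL/6 mice, 28 days old at the first dose and 56 days old at the end. They received TCDD in sesame oil by oral gavage every 4 days, 7 gavages in all, and the tissue was collected on day 28. The remaining libraries came from mice treated alike with sesame oil vehicle or with 0.01 to 30 μg/kg TCDD, and each of the 9 groups held 3 mice. The barcodes named with the count tables were used 2 times over, and by order of mouse number both groups fell in the second use. Each mouse was a separate animal, but the labels do not state cages or litters, and a scraping holds every cell type of the mucosa, so fewer cells of a type and less RNA per cell cannot be told apart.

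TCDD binds the aryl hydrocarbon receptor (AhR), which regulates transcription once a ligand is bound. On DNA it acts as a pair with the protein ARNT, and the core of the sequence that the pair reads is GCGTG. The best known AhR targets encode the cytochrome P450 enzymes CYP1A1 and CYP1B1, which oxidize planar aromatic compounds, and the AhR repressor AHRR, which competes with AhR for ARNT and closes a negative feedback loop. The gut epithelium meets dietary and microbial AhR ligands, and CYP1 enzymes there clear them. The promoters of the 3 AhR target genes that rose and of the gene that fell most are shown because a reader can see how often the core occurs in them. Each is the 250 bases before the RefSeq transcription start, on the gene's strand in GRCm38.p6, with every match to GCGTG or its reverse complement CACGC in capitals.
Cyp1a1, chr9:57697363-57697612, plus strand: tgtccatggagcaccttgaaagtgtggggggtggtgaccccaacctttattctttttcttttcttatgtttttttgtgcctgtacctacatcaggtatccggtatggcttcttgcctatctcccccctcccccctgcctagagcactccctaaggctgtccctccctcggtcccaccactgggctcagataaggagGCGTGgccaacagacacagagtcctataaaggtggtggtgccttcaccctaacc
Cyp1b1, chr17:79715062-79715311, minus strand: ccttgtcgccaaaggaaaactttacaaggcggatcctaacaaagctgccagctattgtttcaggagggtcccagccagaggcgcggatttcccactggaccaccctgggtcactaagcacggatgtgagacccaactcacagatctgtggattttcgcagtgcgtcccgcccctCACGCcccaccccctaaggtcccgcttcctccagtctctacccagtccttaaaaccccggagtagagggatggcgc
Ahrr, chr13:74292332-74292581, minus strand: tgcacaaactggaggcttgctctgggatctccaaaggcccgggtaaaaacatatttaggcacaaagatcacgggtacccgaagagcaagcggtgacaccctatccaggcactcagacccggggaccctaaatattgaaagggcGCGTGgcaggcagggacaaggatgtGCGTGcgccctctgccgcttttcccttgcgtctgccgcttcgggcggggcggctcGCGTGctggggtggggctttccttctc
Pcdh17, chr14:84443313-84443562, plus strand: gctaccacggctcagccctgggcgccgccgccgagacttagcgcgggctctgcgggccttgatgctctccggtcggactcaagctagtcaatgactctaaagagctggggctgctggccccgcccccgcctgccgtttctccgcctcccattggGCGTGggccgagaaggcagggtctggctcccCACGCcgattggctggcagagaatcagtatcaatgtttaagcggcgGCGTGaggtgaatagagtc

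The windows held 1 core for Cyp1a1, 1 for Cyp1b1, 3 for Ahrr and 3 for Pcdh17. Of all 32851 windows of this length in the table, 28.2% held at least 1 core and 2.77% held at least 3, counting both strands and allowing overlaps. A match describes these letters and does not show binding, and more distant elements were not searched. Of the other genes looked up, Tiparp had 1 core, while the windows of Acta1, Wfikkn2, Exoc3, Plxnb1 and Nqo1 had 0. Nid2 had no window, and the remaining genes described below were not looked up.

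The libraries held between 10918695 and 13235280 counts on genes. The defining epithelial genes were abundant in all 6. Epcam ranged from 986 to 1135 CPM (counts per 1e6 counts on genes, scaled between libraries) and Krt8 from 3243 to 3630 CPM, and the summed level of the 18 epithelial genes ran from 22646 to 25119 CPM at 3 μg/kg and from 23184 to 26081 CPM at 10 μg/kg. Mouse 59 stood apart, with 1248 CPM summed over 11 genes of the exocrine pancreas against 35.9 to 81.7 CPM in the other 5 mice. In those 5 mice Cela1 alone made up 32.4 to 80.0 CPM of the sum. High sums also occurred elsewhere in the series, with 4161 CPM in vehicle-treated mouse 3 and 2333 CPM in mouse 44 at 1 μg/kg. A score of Hox genes, which follow position along the colon, was 4.68 in mouse 57 and 3.85 in mouse 59 but -3.20 in mouse 58, and it ran from -1.91 to -0.57 at 3 μg/kg. The score of clock genes was nearly equal, with 1.87 ± 0.16 in the lower and 1.89 ± 0.02 in the higher dose group (SD, n = 3).

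At 10 μg/kg, 5 genes were higher and 3 lower than at 3 μg/kg. The 5 that rose were Cyp1b1, Cyp1a1, Ahrr, Acta1 and Wfikkn2, and the 3 that fell were Pcdh17, Nid2 and Plxnb1. These were 8 of 16496 genes tested (0.0485% in all, 0.0303% higher and 0.0182% lower) by edgeR's quasi-likelihood test, at an adjusted p under 0.05 by the Benjamini-Hochberg method and with a fold of 1.5 or more. The fit held all 27 libraries. A ninth gene, Exoc3, passed the adjusted p alone (0.0546% of genes) but not the fold. Before adjustment, 791 genes (4.8%) had p under 0.05, a count that was 480 without mouse 57 and 1355 without mouse 58. Over all genes tested the median log2 fold change was -0.0042 and the median standard error (SE) 0.17, and 56.8% of genes had a 95% interval that lay within a fold of 1.5 on both sides.

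**Figure D1:**
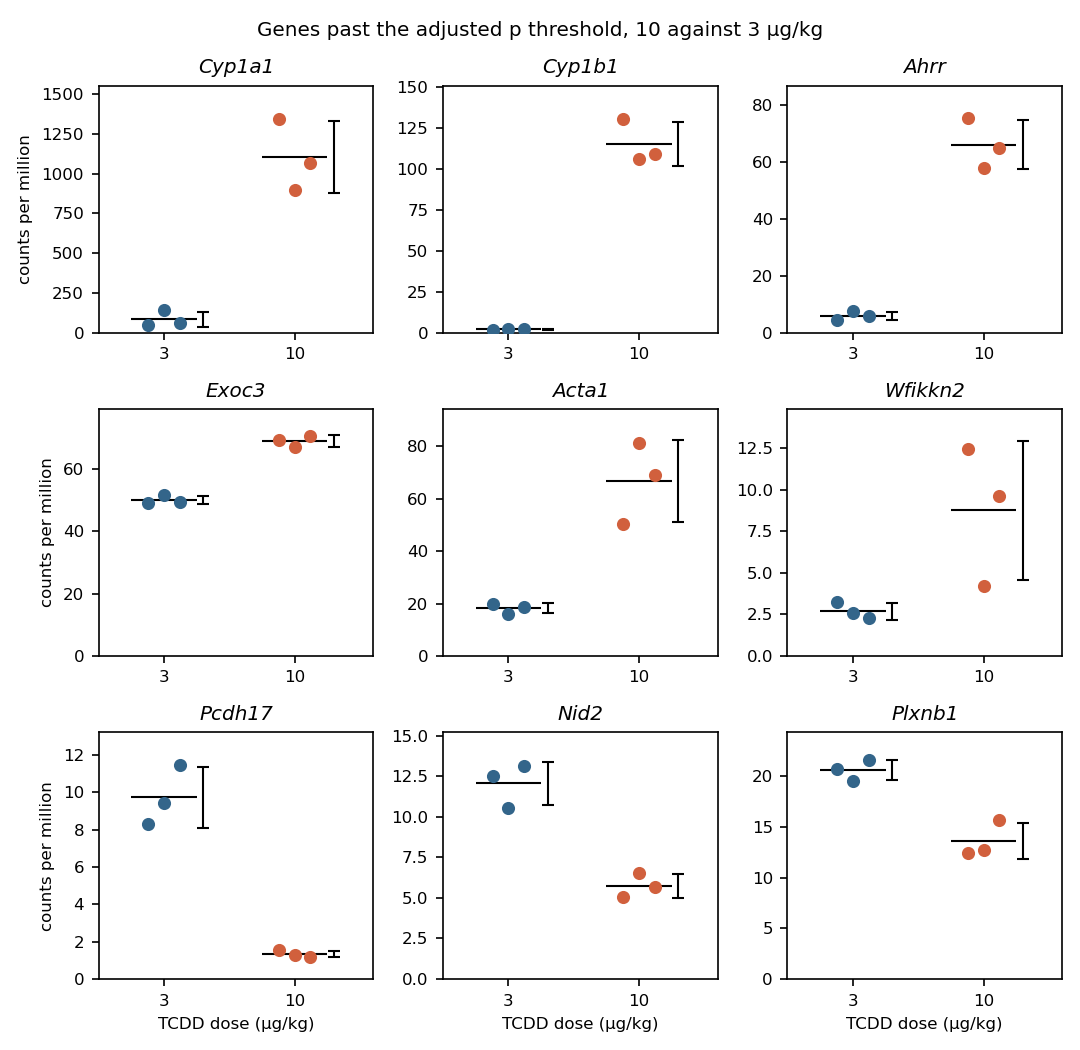
CPM of 9 genes in the 3 mice at 3 μg/kg (blue) and the 3 mice at 10 μg/kg (orange). Each point is 1 mouse, the line is the group mean and the bar beside it the SD. The groups do not overlap for any of the 9 genes, which were chosen for passing the adjusted p.

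Cyp1b1 (ENSMUSG00000024087, chr17:79701537-79715061, minus strand; gene positions are from GENCODE M21 on GRCm38) showed the greatest change of the genes past the threshold. It encodes a P450 that hydroxylates aromatic hydrocarbons and estrogens. It measured 1.75, 2.14 and 2.02 CPM in mice 49, 51 and 52, that is 19 to 26 reads, and 130.4, 106 and 109 CPM in mice 57, 58 and 59. The group means were 1.97 ± 0.203 and 115 ± 13.3 CPM (SD, 3 mice each), so every mouse at the higher dose lay far above every mouse at the lower. The fold was 57.99 (log2 5.86, SE 0.27, 95% interval 5.30 to 6.42, adjusted p = 1.35e-12 by edgeR). Vehicle-treated mice had 0.133 ± 0.055 CPM and mice at 1 μg/kg 0.624 ± 0.175 CPM.

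Cyp1a1 (ENSMUSG00000032315, chr9:57687928-57703824, plus strand), which encodes the classical dioxin-inducible P450, was the most abundant of the 8 genes per kilobase of exon. It measured 50.6, 139.8 and 58.9 CPM at 3 μg/kg, where mouse 51 was more than 2 times the other mice. It measured 1344, 896 and 1069 CPM at 10 μg/kg, and the groups did not overlap. The fold was 13.3 (log2 3.73, SE 0.27, adjusted p = 5.99e-09 by edgeR). Without mouse 51 the log2 fold change was 4.34. Its neighbour Cyp1a2, another member of the same subfamily and best known from the liver, had 0 reads in every mouse at 3 μg/kg and 5, 3 and 2 reads at 10 μg/kg, too few to be tested.

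Ahrr (ENSMUSG00000021575, chr13:74211118-74292331, minus strand), the feedback repressor of the receptor, measured 4.50, 7.46 and 5.74 CPM at 3 μg/kg. It measured 75.2, 57.96 and 64.95 CPM at 10 μg/kg, all above the lower group. The fold was 11.1 (log2 3.48, SE 0.20, adjusted p = 4.72e-11 by edgeR). Per kilobase of exon the level of Ahrr was 0.625 CPM at 3 μg/kg, above that of Cyp1b1 at 0.337 CPM. At 10 μg/kg the order of this pair was the opposite, with 6.99 CPM for Ahrr and 19.7 CPM for Cyp1b1 per kilobase, while Cyp1a1 was the highest at both doses with 29.8 and 396 CPM per kilobase.

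Exoc3 (ENSMUSG00000034152, chr13:74169488-74208732, minus strand), which encodes a subunit of the exocyst complex that tethers secretory vesicles to the plasma membrane, is the next coding gene downstream of Ahrr on the same strand of chromosome 13, with 2385 bases between them. It measured 49.1, 51.5 and 49.4 CPM at 3 μg/kg and 69.4, 66.9 and 70.5 CPM at 10 μg/kg. The groups were narrow and did not overlap, and the fold of 1.38 (log2 0.46, SE 0.07, adjusted p = 0.00214 by edgeR) lay under the threshold of 1.5. Pdcd6, the next gene on the other side of Ahrr, did not pass (log2 fold change -0.07, SE 0.09, adjusted p = 0.999), nor did Slc9a3, which lies 45 bases from Exoc3 (0.14, SE 0.14, adjusted p = 0.999). Whether reads running on from Ahrr were counted for Exoc3 was not tested. The next coding genes beside Cyp1a1 and Cyp1b1 that could be tested were Edc3, Rmdn2 and Atl2, and their log2 fold changes ran from -0.11 to 0.27 with none past the threshold.

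No other gene of the AhR battery passed between these doses. Of the 21 genes of the list, 17 could be tested, 3 rose past the threshold (0.0303% of all genes did) and 0 fell. Unadjusted p was under 0.05 on the higher side for 4 of the 17 (2.26% of all genes). The median of the 17 was 0.15 on the log2 scale, against -0.0042 for all genes. Tiparp, which encodes a mono-ADP-ribosyltransferase that modifies AhR, measured 21.9, 24.1 and 27.9 CPM at 3 μg/kg. It measured 35.3, 40.0 and 39.2 CPM at 10 μg/kg, so the groups did not overlap, but the difference did not pass (log2 0.63, SE 0.16, 95% interval 0.31 to 0.95, adjusted p = 0.353). DESeq2 gave Tiparp an adjusted p of 0.0497. Nqo1, a quinone reductase shared with the NRF2 response, measured 75.7, 71.8 and 82.0 CPM at 3 μg/kg and 79.1, 101.9 and 78.5 CPM at 10 μg/kg, which overlapped. Its interval of -0.29 to 0.64 reached beyond a fold of 1.5 on the upper side only.

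Several members were measured closely enough to bound any change. The 95% intervals of Cyp2s1 (-0.06 to 0.43), Xdh (-0.11 to 0.41), Nfe2l2 (-0.18 to 0.29), Htatip2 (-0.25 to 0.23), Slc7a5 (-0.39 to 0.44), Ugt1a6a (-0.51 to 0.42), Ugt1a6b (-0.30 to 0.52) and Ugdh (-0.55 to 0.36) lay within a fold of 1.5 on both sides. Those of Gsta1 (-0.67 to 0.51), Fmo1 (-0.27 to 1.496), Cd36 (-0.88 to 2.17) and Aldh1a3 (-1.60 to 0.12) did not. The isoforms of the Ugt1a locus share exons, so reads between Ugt1a6a and Ugt1a6b could be split or dropped in counting. Aldh3a1 had 0, 3 and 0 reads at 3 μg/kg and 2, 2 and 4 reads at 10 μg/kg, and Gsta2 and Cyp2a5 were likewise too low to test. Ahr itself measured 26.4 CPM at 3 μg/kg and 27.6 CPM at 10 μg/kg (log2 0.07, SE 0.13), and 0 of the 15 genes of the receptor complex and its partners passed.

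**Figure D2:**
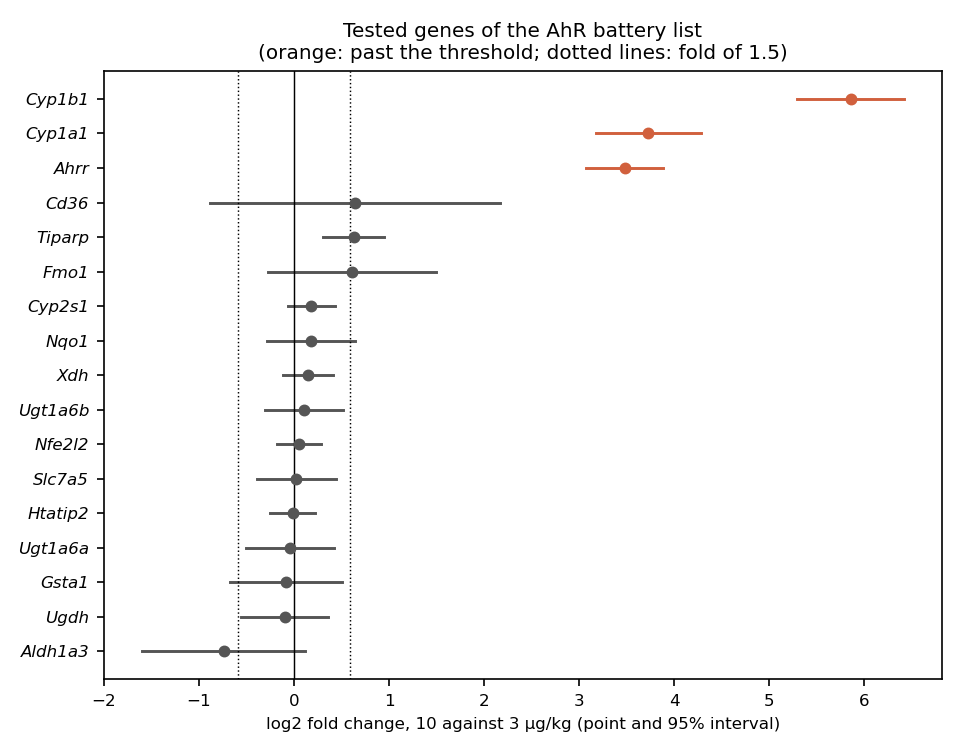
Log2 fold change of 10 against 3 μg/kg for the 17 tested genes of the AhR battery, as a point with its 95% interval, with dotted lines at a fold of 1.5. Cyp1b1, Cyp1a1 and Ahrr (orange) lie at 3.48 or above, and the other 14 lie between -0.74 and 0.65.

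Acta1 (ENSMUSG00000031972, chr8:123891769-123894751, minus strand) rose as the only gene past the threshold in the muscle lists. It encodes the alpha actin of skeletal muscle. It measured 19.9, 16.1 and 18.6 CPM at 3 μg/kg and 50.3, 81.2 and 68.9 CPM at 10 μg/kg, with no overlap. The fold was 3.66 (log2 1.87, SE 0.22, adjusted p = 3.78e-05 by edgeR). Of the 16 genes of the skeletal and cardiac list, 3 could be tested and all 3 had positive fold changes, with a median of 0.68. Besides Acta1 these were Des (0.68, SE 0.84) and Ttn (0.37), and neither passed. The summed level of the list did not overlap, at 31.3 to 46.7 CPM and 76.4 to 110.5 CPM, and Acta1 itself made up 16.1 to 19.9 and 50.3 to 81.2 CPM of these. The untested genes were low, with Ckm at 0 to 10 reads, Mylpf at 1 to 5, Actn3 at 0 to 2, Tnnt3 at 0 to 1 and Myh4 at 0 in the 6 mice. Acta1 also belongs to the smooth muscle list. Of the 19 tested genes of that list 1 rose past the threshold, against 0.0303% of all genes, and the median log2 fold change was 0.22. Its summed level overlapped between the groups, at 714 to 968 CPM and 840 to 1059 CPM. Des measured 17.1, 27.1 and 9.93 CPM at 3 μg/kg and 21.9, 27.4 and 37.3 CPM at 10 μg/kg, and Myh11 56.3, 138 and 51.4 CPM against 70.7, 78.2 and 117.9 CPM. In both genes mouse 51 reached the values of the higher dose, whereas for Acta1 it was the lowest of the 6.

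Wfikkn2 (ENSMUSG00000044177, chr11:94235956-94246005, minus strand), which encodes a secreted protein that binds the growth factors myostatin and GDF11, measured 3.22, 2.57 and 2.25 CPM at 3 μg/kg. It measured 12.5, 4.195 and 9.62 CPM at 10 μg/kg, so that mouse 58 lay close to the lower group. The fold was 3.28 (log2 1.71, SE 0.29, adjusted p = 0.012 by edgeR). The mice at 10 μg/kg had the same order in the Hox score, and with that score as a covariate the log2 fold change was 1.36 and the adjusted p 0.0743. In a fit of the 6 libraries alone the adjusted p of Wfikkn2 was 0.56, in the 11 libraries of the second index set 0.286, with glmTreat 0.189 and with limma voom 0.0704. It was also 0.235 without mouse 57, 0.078 without mouse 59, 0.11 without mouse 51 and 0.191 without mouse 52.

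Pcdh17 (ENSMUSG00000035566, chr14:84443563-84539002, plus strand) was the gene that fell most. It encodes a protocadherin, a calcium-dependent cell adhesion protein. It measured 8.27, 9.43 and 11.5 CPM at 3 μg/kg, or 90 to 148 reads, and 1.54, 1.28 and 1.19 CPM at 10 μg/kg, or 15 to 18 reads. No mouse of one group came near the other. The log2 fold change was -2.86 (SE 0.23, 95% interval -3.34 to -2.38, adjusted p = 5.76e-08 by edgeR), a fall of 7.27-fold. Vehicle-treated mice had 33.8 ± 0.837 CPM and mice at 1 μg/kg 27.6 ± 2.99 CPM, so the level at 3 μg/kg already lay below both. The nearest coding genes, Diaph3 and Olfm4, lie 2116364 and 4420423 bases away, and Diaph3, the only one of the pair that could be tested, had a log2 fold change of 0.07 (SE 0.22).

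Nid2 (ENSMUSG00000021806, chr14:19751265-19811787, plus strand), which encodes nidogen 2 of the basement membrane, measured 12.5, 10.5 and 13.1 CPM at 3 μg/kg. It measured 5.03, 6.51 and 5.67 CPM at 10 μg/kg, with no overlap. The log2 fold change was -1.07 (SE 0.19, adjusted p = 0.0217 by edgeR), a fall of 2.1-fold. Vehicle-treated mice had 12.8 ± 1.73 CPM, close to the level at 3 μg/kg. Nid2 overlaps Rtraf on the opposite strand, and Rtraf had a log2 fold change of -0.10 (SE 0.10). The library kit and counting are not stated to use the strand in the sources used here.

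Plxnb1 (ENSMUSG00000053646, chr9:109095389-109119917, plus strand), which encodes the semaphorin receptor plexin B1, measured 20.7, 19.6 and 21.6 CPM at 3 μg/kg. It measured 12.5, 12.7 and 15.7 CPM at 10 μg/kg, again with no overlap. The log2 fold change was -0.60 (SE 0.11, adjusted p = 0.0275 by edgeR), a fall of 1.51-fold that lay just inside the threshold of 1.5. With RLE size factors it was -0.58, outside the threshold, and without the filter on low counts the adjusted p was 0.0889. Nid2 and Plxnb1 did not pass in a fit of the 6 libraries alone (adjusted p = 0.11 and 0.486), in the 11 libraries of the second index set (0.267 and 0.49) or with glmTreat (1.00 for both), and Nid2 did not pass with limma voom (0.0704). Nid2 and Plxnb1 both lost their call without mouse 49, without mouse 52 or without mouse 57, with adjusted p of 0.129 to 0.305 for Nid2 and 0.178 to 0.499 for Plxnb1. Nid2 also lost it without mouse 59 (0.16), and Plxnb1 without mouse 51 (0.0958) or mouse 58 (0.15).

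**Figure D3:**
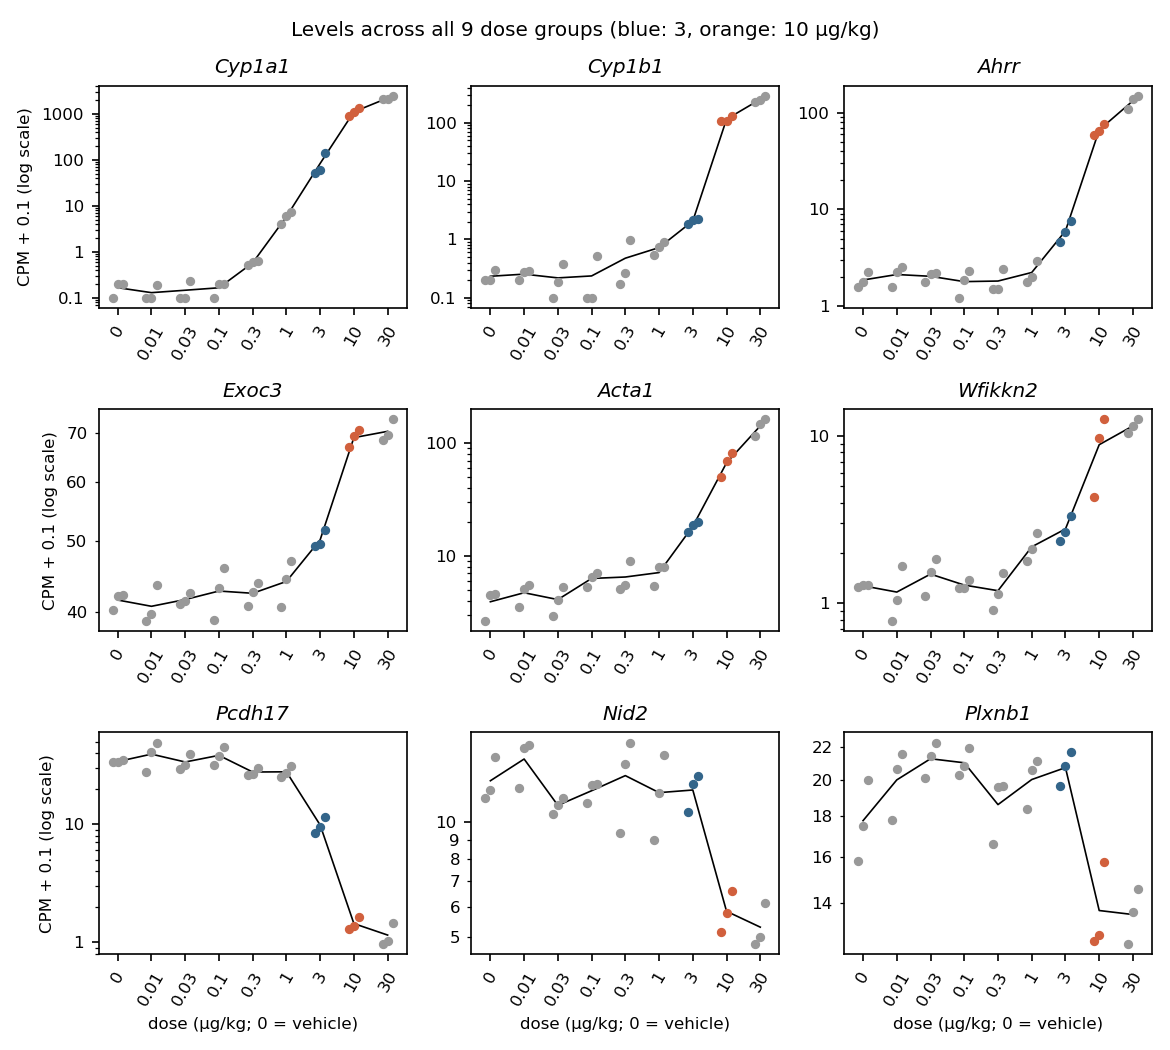
Levels of the same 9 genes in every mouse of the 9 dose groups, as CPM plus 0.1 on a log axis that differs between panels, with dose on the horizontal axis and a line through the group means. Mice at 3 μg/kg are blue, those at 10 μg/kg orange and the others grey. Cyp1b1 went from 1.97 to 115 CPM between the coloured groups, and Nid2 and Plxnb1 had similar means from vehicle to 3 μg/kg.

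The step from 3 to 10 μg/kg was then set against the step from 10 to 30 μg/kg, which has nearly the same dose ratio. The question was whether the change was larger in the lower step. The difference passed for 3 genes (0.0182% of 16496) by edgeR's quasi-likelihood test with a difference of at least log2 1.5, and 548 genes (3.32%) had an unadjusted p under 0.05. Genes named here were chosen on the lower step, which favours a larger value there, whereas the count of 3 is over all genes tested. The 10 μg/kg libraries enter both steps, so a high or low value there moves the steps in opposite directions. Cyp1b1 changed by 5.86 in the lower step and by 1.13 (SE 0.20) in the upper, a difference of 4.73 (SE 0.37, adjusted p = 9.86e-08). Ahrr changed by 3.48 and then by 1.00 (SE 0.17), a difference of 2.48 (SE 0.29, adjusted p = 0.000125). Cyp1a1 changed by 3.73 and then by 1.00 (SE 0.24), a difference of 2.73 (SE 0.40, adjusted p = 0.00335).

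With DESeq2 the step comparison passed for Cyp1b1, Ahrr and Pcdh17 and not for Cyp1a1, and Cyp1a1 also failed it without mouse 57 and in the 11 libraries of the second index set alone. Pcdh17 had -2.86 in the lower step and -0.32 (SE 0.31) in the upper, and the difference of -2.54 (SE 0.49) did not pass (adjusted p = 0.136), whereas without the filter on low counts it passed, as with DESeq2. Acta1 had 1.87 and 1.09 (SE 0.21), a difference of 0.79 (SE 0.35) that did not pass either (adjusted p = 1.00). Nid2, Plxnb1 and Exoc3 had -0.14 (SE 0.20), -0.02 (SE 0.11) and 0.03 (SE 0.07) in the upper step, and Wfikkn2 had 0.38 (SE 0.26), but for none of these did the difference between the steps pass. Tiparp had 0.63 and 0.56 (SE 0.15) in the 2 steps, a difference of 0.07 (SE 0.27). At 30 μg/kg the means of the 3 genes whose difference passed were 252 ± 31.7 CPM for Cyp1b1, 132 ± 20 CPM for Ahrr and 2199.8 ± 198 CPM for Cyp1a1 (SD, n = 3).

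**Figure D4:**
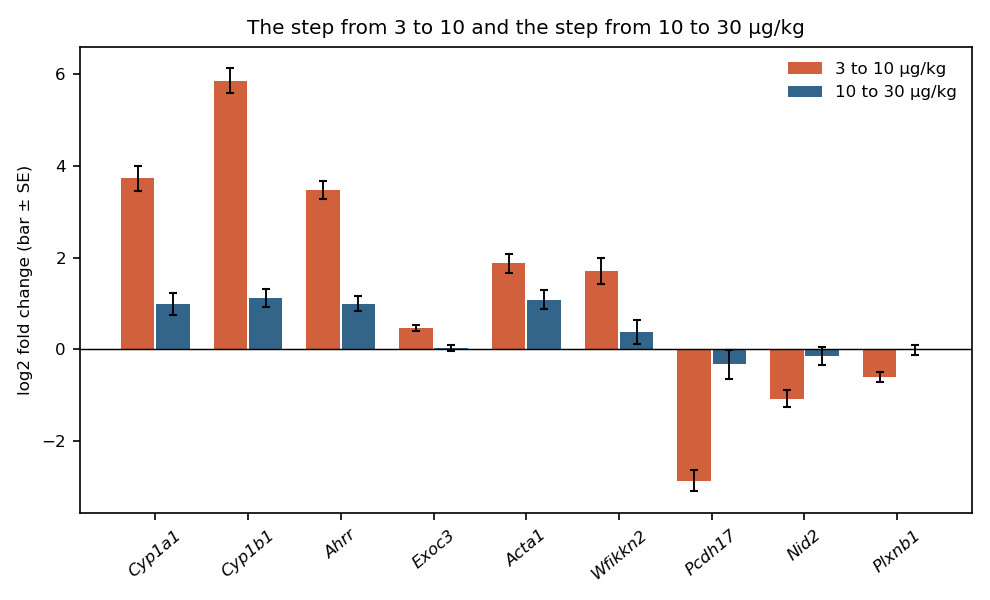
Log2 fold change with its SE for the step from 3 to 10 μg/kg (orange) and the step from 10 to 30 μg/kg (blue) in 9 genes. The genes were chosen for passing the adjusted p in the lower step, which favours a longer orange bar. The difference between the steps passed for Cyp1b1, Ahrr and Cyp1a1.

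The genes next in line by p did not pass. Sult1a1, a phenol sulfotransferase, measured 174.7, 167.9 and 165.6 CPM at 3 μg/kg and 99.6, 110.2 and 102.6 CPM at 10 μg/kg. The groups were tight and apart, with a log2 difference of -0.70 (SE 0.15, adjusted p = 0.178). It passed with DESeq2 (0.0114), without the filter on low counts (0.0171) and in a fit of the 6 libraries alone (0.0112), the fit in which Wfikkn2, Nid2 and Plxnb1 did not pass. Sult1c2, of the same family, had -0.57 (SE 0.12, adjusted p = 0.178), with 30.0 ± 1.05 against 20.2 ± 3.66 CPM. Its adjusted p was under 0.05 in at least 1 alternative fit, but it passed together with the fold in none. At 30 μg/kg Sult1a1 measured 68.2 ± 18 CPM and Sult1c2 14.8 ± 1.25 CPM. The phase II list of conjugating enzymes had 0 of 37 tested genes past the threshold and a median of -0.10.

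Notch1, the receptor that steers gut progenitors towards absorptive fates, had a log2 difference of -0.51 (SE 0.11, adjusted p = 0.178). The mitochondrial urea cycle gene Otc had -0.86 (SE 0.19), the receptor gene Fgfr4 -0.46 (SE 0.10) and Nrn1, for neuritin, -1.37 (SE 0.31), each with an adjusted p of 0.22. On the higher side, Selenbp1, which encodes a methanethiol oxidase, measured 710 ± 19.1 against 1023 ± 38.2 CPM (log2 0.53, SE 0.12), and Deptor, an inhibitor of mTOR, had 0.36 (SE 0.08), both with an adjusted p of 0.22. Selenbp1 passed with the Hox score as a covariate (log2 0.61, adjusted p = 0.0387), and with DESeq2 its adjusted p was 0.0104 at a fold under 1.5. Otc passed with DESeq2 and without mouse 59. Notch1 and Deptor each had an adjusted p under 0.05 in at least 1 alternative fit, but passed together with the fold in none. In all 10 genes of smallest p outside the threshold, Exoc3 and the 2 sulfotransferases included, the groups did not overlap, as in 9.99% of all genes, but they were chosen for their p.

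Tuft cells, the chemosensory cells of the epithelium, had 27 genes in their list, of which 24 were tested. None passed, but 21 of 24 had a negative fold change and 9 lay wholly below the 3 μg/kg group, against 5.5% of all genes. An unadjusted p under 0.05 on the lower side was found for 8, against 2.54% of all genes. The median was -0.50 on the log2 scale. Trpm5, the cation channel of their taste pathway, measured 17.2, 13.4 and 16.3 CPM at 3 μg/kg and 8.96, 9.50 and 9.10 CPM at 10 μg/kg (log2 -0.76, SE 0.17, adjusted p = 0.221). DESeq2 gave it 0.0292. The kinase Dclk1 measured 32.2, 25.3 and 31.9 CPM against 20.8, 17.6 and 21.9 CPM. Tas1r3, a taste receptor subunit, had a positive difference (0.51, SE 0.18) that did not pass. Averaged over the list and set against the mean at 3 μg/kg, the log2 level was -0.43, -0.43 and -0.40 in mice 57, 58 and 59 and ran from -0.12 to 0.10 at 3 μg/kg.

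The list for cell cycle and replication had 41 tested genes, 0 past the threshold. Of these, 37 had a negative fold change and 21 lay wholly below the 3 μg/kg group, against 5.5% of all genes. An unadjusted p under 0.05 on the lower side was found for 9, against 2.54% of all genes. The median was -0.27. Aurka, a mitotic kinase, measured 13.1, 13.7 and 11.5 CPM at 3 μg/kg and 9.30, 8.65 and 7.98 CPM at 10 μg/kg (log2 -0.56, SE 0.18, adjusted p = 0.817). Cdk1, which drives entry into mitosis, had -0.46 (SE 0.17) and Top2a, which untangles replicated DNA, -0.39 (SE 0.15). The list averages were -0.39, -0.16 and -0.22 in mice 57, 58 and 59 against -0.09 to 0.08 at 3 μg/kg. They did not follow dose across the groups, with -0.52 to -0.06 at 1 μg/kg, -0.43 to -0.04 at 0.3 μg/kg, -0.13 to 0.48 at 0.1 μg/kg, -0.10 to 0.00079 in vehicle-treated mice and -0.42 to -0.05 at 30 μg/kg. The averages at 10 μg/kg thus overlapped those at 0.3 and 1 μg/kg.

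The stem cell and Wnt list had 0 of 21 past the threshold, with 8 positive and 13 negative fold changes and a median of -0.08. On the lower side, 3 had an unadjusted p under 0.05 by edgeR (2.54% of all genes). Wholly below the 3 μg/kg group lay 2 (5.5% of all genes). On the higher side, 1 had such a p (2.26% of all genes) and 1 lay wholly above (4.49%). The 3 genes of smallest p in this list were of both signs. Lgr5, the crypt base stem cell receptor, measured 9.38, 7.03 and 9.15 CPM at 3 μg/kg and 4.95, 5.74 and 5.29 CPM at 10 μg/kg (log2 -0.68, SE 0.18, adjusted p = 0.441). Sox9, a transcription factor of the crypt, had -0.46 (SE 0.15, adjusted p = 0.911). Rnf43, a ubiquitin ligase that restrains Wnt signalling, had 0.15 (SE 0.07, adjusted p = 0.99) with no overlap, and the Wnt target Axin2 had -0.03 (SE 0.14). The interferon-stimulated list had 26 of 27 genes with a positive fold change and a median of 0.32, and 0 passed. An unadjusted p under 0.05 on the higher side was found for 4 of them, against 2.26% of all genes, and 2 lay wholly above the lower group, against 4.49% of all genes. Irf9, part of the interferon signalling complex, measured 41.2, 33.5 and 33.1 CPM against 54.8, 46.9 and 39.4 CPM, which overlapped. The averages of that list were 0.51, 0.37 and 0.09 in mice 57, 58 and 59, against -0.14 to 0.15 at 3 μg/kg. They ran from -0.38 to 0.16 at 30 μg/kg, from 0.08 to 0.15 at 1 μg/kg and from -0.74 to -0.40 at 0.01 μg/kg.

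**Figure D5:**
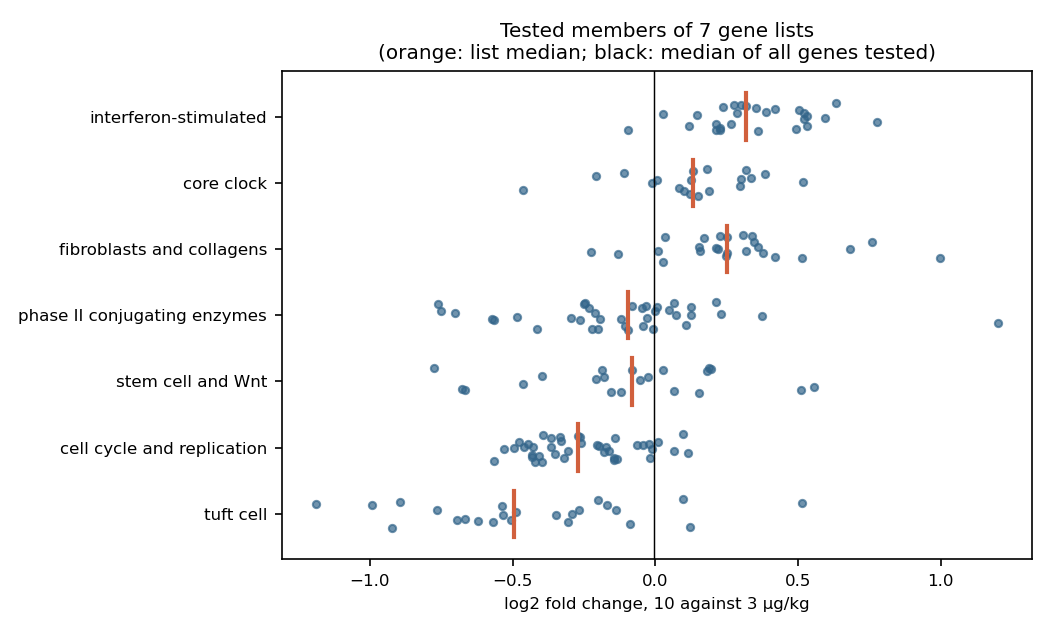
Log2 fold change of 10 against 3 μg/kg for the tested members of 7 gene lists, 1 point per gene, with the list median in orange and the median of all genes as a black line. The tuft cell median lies at -0.50 and the interferon-stimulated median at 0.32, and none of the genes shown passed the threshold.

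The study asked about cobalamin, and genes of its uptake did not pass between these doses. Cubn, the receptor for the cobalamin and intrinsic factor complex, measured 58, 25.6 and 58.7 CPM at 3 μg/kg and 19.9, 43.8 and 31.5 CPM at 10 μg/kg. The groups overlapped, and the interval of the log2 difference ran from -1.56 to 0.40. Over the alternative fits that difference ran from -0.88 to -0.05. The paper reports that TCDD repressed Cubn with dose in the colon. Cubn measured 35.7 ± 15.3 CPM in vehicle-treated mice and 15.6 ± 5.9 CPM at 30 μg/kg. Its partner Amn had 0.30 (95% interval -0.60 to 1.196). The interval was narrower for Lmbrd1, the lysosomal cobalamin exporter (-0.07 to 0.29), Abcc1, a transporter that exports cobalamin (-0.18 to 0.21), and Tcn2, the plasma carrier (-0.17 to 0.29), all within a fold of 1.5. None of the 14 tested genes of the cobalamin list and none of the 15 of the propionyl-CoA list passed, with medians of -0.02 and -0.04.

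Of the 45 gene lists, 3 had a member past the threshold, the AhR battery and the 2 muscle lists that share Acta1. The exocrine pancreas and small bowel list had the greatest median, 5.61, with 0 of 15 past the threshold. It came from mouse 59, where Cpa1 had 1869 reads against 1 to 11 in the others and Ctrb1 4460 against 4 to 39. Cyp1b1, Cyp1a1, Ahrr, Acta1 and Pcdh17 passed without mouse 59 and without each of the other 5 mice in turn. The core clock list (19 genes, median 0.13), the NRF2 list (22 genes, median -0.01) and the unfolded protein list (25 genes, median 0.02) had 0 past the threshold each. The fibroblast and collagen list had 23 of 25 genes with a positive fold change, a median of 0.25 and 0 past the threshold, while 48.8% of all genes had a positive fold change. Of the 25, 0 had an unadjusted p under 0.05 on the higher side, against 2.26% of all genes, and 4 lay wholly above the 3 μg/kg group, against 4.49%. The summed levels of the list overlapped at 377 to 529 CPM and 467 to 612 CPM.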

How the data were processed

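The deposited tables, 1 per mouse, hold raw counts of reads for each gene, which the authors did not normalize. The submitters' processing notes name Trimmomatic 0.33, TopHat2 2.1.0, SAMtools 1.2.0 and HTSeq 0.6.1, with the build GRCm38, and the annotation and strand setting are not given in the sources used here. Reads with more than 1 alignment (30.9 to 33.7% in the 6 libraries compared) and reads on no feature (30.3 to 33.0% in these 6) were left out, so genes with close copies can be undercounted. Symbols matched 45143 of 46078 rows.

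All 27 libraries entered 1 edgeR 4.0.16 fit (R 4.3.3, filterByExpr with a minimum count of 10, TMM, glmQLFit with 9 dose groups). CPM are counts scaled to TMM library sizes. The contrasts were 10 minus 3 μg/kg, and the step from 3 to 10 minus the step from 10 to 30 μg/kg. SEs were taken from the fold change and F statistic. A gene was called at a Benjamini-Hochberg adjusted p under 0.05 and a fold of at least 1.5. Counts were simulated with 200 genes changed at 10 μg/kg, all drawn from genes with a mean of at least 1 CPM. The test of 10 against 3 μg/kg recovered 97% of their 4-fold and 77% of their 2-fold changes. It called 7 other genes among 16257 tested. Recovery in genes under 1 CPM was not simulated.

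Alternatives were RLE size factors, DESeq2 1.42.0, limma voom 3.58.1, other filters, other sets of libraries, an adjusted p alone, glmTreat, Hox and clock scores as covariates, and each library of the groups compared left out in turn (6 for 10 against 3 μg/kg, 9 for the steps). The genes named were those called, the AhR battery, Cubn, Amn, Lmbrd1, Abcc1 and Tcn2, the 2 genes of smallest p in each other list, and the 10 genes of smallest p that were not called; neighbouring genes and some list members and markers were added after their values were seen. The members and lists were chosen with earlier results of these data known. Same-group libraries differed by more than sampling noise (χ2 per degree of freedom 5.84 to 27.2), so each counted as 1 replicate. Promoters are from RefSeq, where 10 of the 11 genes looked up had an entry.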

Additional observations from a re-analysis of the deposited data

How the results depend on the processing

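Cyp1b1, Cyp1a1, Ahrr, Acta1 and Pcdh17 passed the threshold for 10 against 3 μg/kg as reported and in each of the 17 alternatives. The 8 genes became 14 with DESeq2 (7 lower; added were Slfn4, Trpm5, Pam, Sult1a1, Otc, Tiparp, Sstr1 and Hist1h2ab, and Plxnb1 was lost), which gave Wfikkn2 no adjusted p, 5 in the 11 libraries of the second index set (1 lower), 5 with glmTreat (1 lower) and 10 without the filter on low counts (6 higher and 4 lower; added were Pam, Sult1a1 and Sstr1, and Plxnb1 was lost). Leaving out each of the 6 libraries in turn gave 5 to 8 genes (4 to 6 higher, 1 to 3 lower), with 5 without mouse 52 and 5 without mouse 57; the filter then kept more genes, and the groups left with 2 mice were assumed to vary like the others. The 6 libraries alone gave 6 genes, of which 5 were among the 8, and voom 6. The 3 genes of the step comparison became 5 without the filter on low counts (added were Pcdh17 and Rpl31-ps18), and 2 to 5 with each of the 9 libraries of these groups left out, with 5 without mouse 65 at 30 μg/kg and without Cyp1a1 when mouse 57 was left out. Small differences changed sign: with the Hox score Ugt1a6a 0.23, Gsta1 0.0228, Ugdh 0.16, Abcc1 -0.0071 and Ano1 -0.0515, with RLE Htatip2 0.00024, and with voom Slc7a5 -0.0194. With each of the 6 libraries left out they ran for Ugt1a6a from -0.16 to 0.13, Gsta1 from -0.20 to 0.0514, Htatip2 from -0.11 to 0.0505, Slc7a5 from -0.21 to 0.28, Nfe2l2 from -0.0358 to 0.0962, Ugdh from -0.25 to 0.0381, Abcc1 from -0.0549 to 0.0932 and Ms4a1 from -0.0211 to 0.35. The cause of these changes was not tested. No paired analysis was possible because the numbers of the mice are unique to them and the groups share none. At 3 mice a group, 2-fold changes can be missed, also in genes above 1 CPM. In the main fit the SEs and adjusted p rest on a spread estimated from all 27 libraries and shared by the 9 dose groups. They cover variation between the mice of this series only.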
